A study of Mus musculus with 4 samples.

Results

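The enzymes that write, copy and remove DNA methylation, and the core of Polycomb repressive complex 2, were followed in λ-MYC lymphoma cells through 10 genes. These were the DNA methyltransferases Dnmt1, Dnmt3a and Dnmt3b, the maintenance factor Uhrf1, the dioxygenases Tet1, Tet2 and Tet3, and the Polycomb genes Ezh1, Ezh2 and Suz12. The genes were chosen by name from the 34866 genes of the deposited table, in which identifiers were matched to symbols with GENCODE M21 (GRCm38). All 10 were present, and all 10 reached the limit for testing, at least 1 TPM (a level relative to gene length and library total) in at least 2 libraries, which 11339 genes passed.

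The study used λ-MYC Tom+/ki mice, in which a human MYC gene from a Burkitt lymphoma line is driven by immunoglobulin λ regulatory sequences. The mice also carry a Cre recombinase allele and a Tomato (Tom) reporter at Rosa26, so that a cell in which Cre was once active stays Tom+. Spleens came from 2 such mice whose tumors (#1 and #2) were IgM+ Tom+, and B220+ IgM+ Tom+ cells and B220+ IgM+ Tom- cells were sorted, which gave 4 RNA-seq libraries. Tom+ and Tom- cells therefore share the transgene and both alleles and differ in the history of Cre activity. Each tumor is 1 mouse, each fraction of a tumor is 1 library, and the age and sex of the mice with these tumors are not given in the sources used here.

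Methylated cytosine at CpG sites is passed on at each cell division by DNMT1, which UHRF1 guides to newly copied DNA. DNMT3A and DNMT3B set new methylation, and the TET enzymes oxidize methylated cytosine as a first step of its removal. Polycomb repressive complex 2, with EZH2 or EZH1 as its catalytic subunit and SUZ12 and EED as its core, methylates histone H3 at silent genes. EZH2 is abundant in dividing germinal center B cells, EZH1 is the form of resting cells, and DNMT3A, TET2 and EZH2 are recurrently mutated in blood cancers.

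TPM values add up to 1000000 in each of the libraries, and read depth is therefore unknown. Mitochondrial genes took 6.61% to 8.67% of TPM in the libraries of tumor #1 and 14.4% to 15.6% in those of tumor #2, and pseudogenes 23.4% to 31.3% over the 4 libraries. The B cell markers Ms4a1, Cd79a, Cd79b, Ptprc and Ighm were present in every library, with Cd79a at 120 to 346 TPM and Ighm at 1255 to 3652 TPM. The summed level was 1.17 to 8.27 TPM for 6 T cell markers, 2.64 to 13.3 TPM for 7 myeloid markers and 0.0349 to 0.592 TPM for 3 NK cell markers. Of the defining markers, Ncr1, Nkg7 and the erythroid gene Hba-a1 were listed at 0 in all libraries. The erythroid gene Hbb-bs was at 18.8 (Tom-) and 16.1 (Tom+) TPM for tumor #1, and was listed at 0 (Tom-) and 0.699 (Tom+) TPM for tumor #2. The 4 plasma cell markers summed to 13.0, 15.2 and 20.1 TPM in 3 libraries and to 231 TPM in Tom+ cells of tumor #2, where Jchain alone was at 209 TPM. Between the fractions, Ms4a1, Cd79a, Cd79b and Ptprc were lower with Tom+ status in each tumor, as were 29.5% of all genes tested. Ms4a1 was lower at an unadjusted p-value below 0.05 (-0.49, SE 0.16, adjusted p = 0.936 from limma). Ighm had log2 differences of -0.088 in tumor #1 and 0.74 in tumor #2 (estimate 0.32, SE 0.25). Of the other markers, 1 T cell, 1 myeloid, 0 NK cell and 3 plasma cell genes and Hbb-bs could be tested, and 0 passed at an unadjusted p-value below 0.05. The B cell markers Ms4a1, Cd79a, Cd79b, Ptprc and Ighm were higher in tumor #2 in both fractions, as were 49.6% of all genes tested. The part of these differences in the values below was not tested. In sorted bulk cells, fewer cells that express a gene and less RNA per cell cannot be told apart.

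The 10 genes spanned the 7.63rd to the 94.5th percentile of the genes tested. Ezh2 was the highest, at 186 (Tom-) and 162 (Tom+) TPM for tumor #1, against 154 (Tom-) and 142 (Tom+) TPM for tumor #2. Its values lay at or above the 93.4th percentile, and they did not overlap with those of the next gene. Uhrf1 followed (mean 103 TPM, range 73.8 to 135), then Suz12 (mean 89.5 TPM, range 76.8 to 105) and Dnmt1 (mean 54.0 TPM, range 33.6 to 78.8). Dnmt3a had a mean of 26.3 TPM, Tet2 of 12.3 TPM and Ezh1 of 7.08 TPM. The lowest were Tet3 (mean 3.90 TPM), Dnmt3b (mean 3.61 TPM) and Tet1, which ranged from 0.728 to 3.26 TPM (mean 1.65 TPM). From Uhrf1 downwards, the ranges of each pair of neighbors over the 4 libraries overlapped. Within each of the 4 libraries, however, Suz12 was above Dnmt1, Dnmt1 above Dnmt3a, Dnmt3a above Tet2, and Ezh1 above Tet3. The other pairs of neighbors changed places in at least 1 library.

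**Figure D1:**
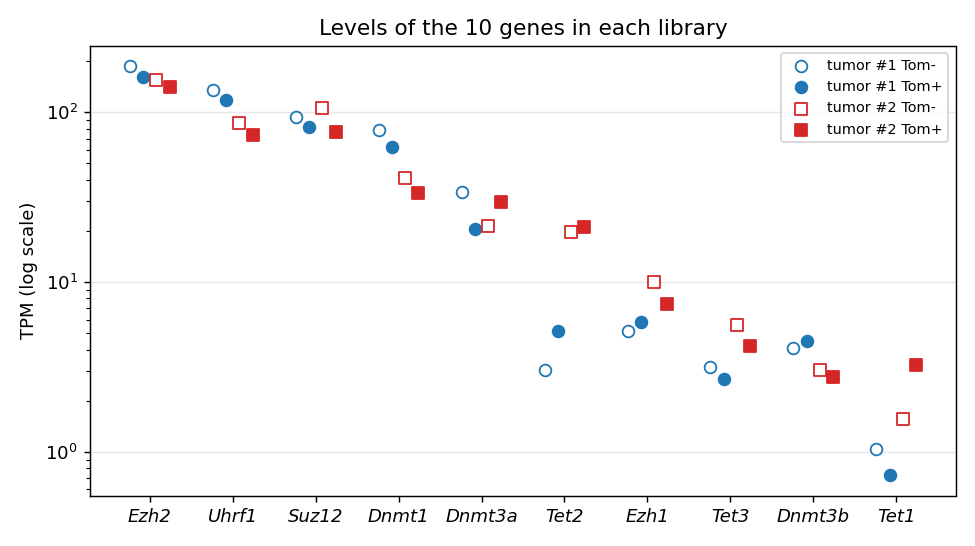
TPM of each gene (log axis) in the 4 libraries, with genes ordered by mean level; circles are tumor #1, squares are tumor #2, open symbols are Tom- cells and filled symbols Tom+ cells. Ezh2 is highest in every library (142 to 186 TPM), and Tet2 has the widest spread, from 3.02 to 21.2 TPM.

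To ask whether Tom status went with a different level of these enzymes, the fractions of each mouse were compared by limma on log2(TPM + 1), with the tumor as a block. Of the 10 genes, 0 passed an adjusted p-value of 0.05 and 0 had an unadjusted p-value below 0.05 in either direction. Among all genes tested, 0% passed after adjustment, and 2.04% had a higher and 2.64% a lower Tom+ level with an unadjusted p-value below 0.05. Dnmt1, Uhrf1, Tet3, Ezh2 and Suz12 were lower in Tom+ cells of both tumors, 5 of 10 beside 29.5% of all genes. Tet2 was the 1 gene that was higher in both, beside 21.6% of all genes, and Dnmt3a, Dnmt3b, Tet1 and Ezh1 went in opposite directions. The median log2 difference was -0.19 over the 10 genes and -0.0029 over all genes in tumor #1, and -0.18 and -0.057 in tumor #2. With 2 pairs, an exact permutation test cannot give a p-value below 0.5.

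Maintenance of methylation rests on Dnmt1 (ENSMUSG00000004099, chromosome 9, 20907209 to 20959888 of GRCm38, minus strand), which copies the methylation pattern onto the new strand. In tumor #1, Dnmt1 was at 78.8 TPM in Tom- cells and 62.8 TPM in Tom+ cells, and in tumor #2 at 40.7 and 33.6 TPM. Tom+ cells were thus lower by similar amounts in the tumors, with log2 differences of -0.32 and -0.27, while both libraries of tumor #2 were below both of tumor #1, so the Tom groups overlapped. The estimate was -0.30 (SE 0.14, adjusted p = 0.936 from limma). Uhrf1 (ENSMUSG00000001228, chromosome 17, 56303321 to 56323486, plus strand), which reads the copied site and recruits DNMT1, had the same arrangement. Its level was 135 (Tom-) and 118 (Tom+) TPM for tumor #1, against 86.6 (Tom-) and 73.8 (Tom+) TPM for tumor #2, a log2 difference of -0.21 (SE 0.13, adjusted p = 0.936). The ratio of Dnmt1 to Uhrf1 TPM stayed between 0.455 and 0.585 over the 4 libraries.

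The de novo enzymes did not share a direction. Dnmt3a (ENSMUSG00000020661, chromosome 12, 3806007 to 3914443, plus strand) was at 33.9 (Tom-) and 20.5 (Tom+) TPM for tumor #1, but at 21.4 (Tom-) and 29.4 (Tom+) TPM for tumor #2. Its log2 difference was -0.70 in the first tumor and 0.44 in the second, and the joint estimate of -0.13 had the second largest SE of the 10 genes (0.35, adjusted p = 0.980 from limma). Dnmt3b (ENSMUSG00000027478, chromosome 2, 153649450 to 153687730, plus strand) was low throughout, at 4.10 (Tom-) and 4.50 (Tom+) TPM for tumor #1, against 3.05 (Tom-) and 2.77 (Tom+) TPM for tumor #2. Its joint estimate was 0.0036 (SE 0.22, adjusted p = 0.999), and its sign turned to -0.00049 with a pseudocount of 0.1. Dnmt3a exceeded Dnmt3b between 4.56-fold and 10.6-fold in TPM.

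The TET enzymes stood apart from each other as well. Tet2 (ENSMUSG00000040943, chromosome 3, 133463679 to 133545139, minus strand) was at 3.02 (Tom-) and 5.12 (Tom+) TPM for tumor #1, and at 19.7 (Tom-) and 21.2 (Tom+) TPM for tumor #2. It was the gene of this group with the largest positive estimate in Tom+ cells, 0.35 on the log2 scale (SE 0.23, adjusted p = 0.936 from limma), with 0.60 from tumor #1 and 0.098 from tumor #2. Tet3 (ENSMUSG00000034832, chromosome 6, 83362373 to 83459084, minus strand) was at 3.15 (Tom-) and 2.67 (Tom+) TPM for tumor #1, against 5.59 (Tom-) and 4.17 (Tom+) TPM for tumor #2, an estimate of -0.26 (SE 0.22, adjusted p = 0.936). Tet1 (ENSMUSG00000047146, chromosome 10, 62804570 to 62908996, minus strand) was at 1.05 (Tom-) and 0.728 (Tom+) TPM for tumor #1, against 1.55 (Tom-) and 3.26 (Tom+) TPM for tumor #2. Its higher level in Tom+ cells was thus found in tumor #2 alone (log2 differences of -0.24 and 0.74, joint estimate 0.25, SE 0.36, adjusted p = 0.952).

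Of the Polycomb genes, Suz12 (ENSMUSG00000017548, chromosome 11, 79993106 to 80034123, plus strand), which encodes the scaffold of the complex, had the largest negative estimate. It was at 93.8 (Tom-) and 82.2 (Tom+) TPM for tumor #1, and at 105 (Tom-) and 76.8 (Tom+) TPM for tumor #2. Both Tom+ libraries were below both Tom- libraries, and Suz12 was the 1 gene of the 10 whose groups did not overlap in this direction, beside 9.86% of all genes tested. In the other direction there were 0 of 10, beside 6.42% of all genes. The log2 difference was -0.32 (SE 0.15, adjusted p = 0.936 from limma), with -0.19 in tumor #1 and -0.45 in tumor #2. Ezh2 (ENSMUSG00000029687, chromosome 6, 47530139 to 47595341, minus strand), the main methyltransferase of dividing cells, was lower in Tom+ cells by 13.1% in tumor #1, a log2 difference of -0.20, and had a difference of -0.12 in tumor #2 (estimate -0.16, SE 0.12, adjusted p = 0.936). Ezh1 (ENSMUSG00000006920, chromosome 11, 101191115 to 101226463, minus strand) was at 5.12 (Tom-) and 5.78 (Tom+) TPM for tumor #1, against 9.97 (Tom-) and 7.44 (Tom+) TPM for tumor #2 (estimate -0.12, SE 0.24, adjusted p = 0.966). Ezh2 exceeded Ezh1 in every library, by 36.4-fold (Tom-) and 28.0-fold (Tom+) for tumor #1, against 15.5-fold (Tom-) and 19.0-fold (Tom+) for tumor #2.

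**Figure D2:**
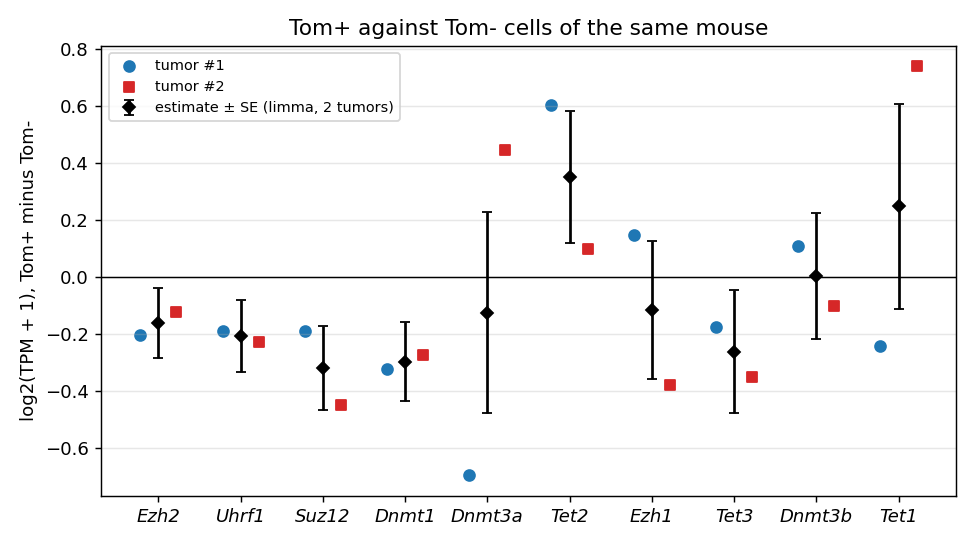
Difference between Tom+ and Tom- cells in log2(TPM + 1) for each gene; circles are tumor #1, squares are tumor #2, and diamonds with bars are the limma estimate and its SE over both tumors. Ezh2, Uhrf1, Suz12, Dnmt1 and Tet3 lie below 0 in both tumors, whereas Dnmt3a is at -0.70 in tumor #1 and 0.44 in tumor #2.

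Partners of these enzymes were examined as lists, and in each of the 7 lists that follow 0 members passed an adjusted p-value of 0.05 and 0 had an unadjusted p-value below 0.05. Among 6 tested partners of maintenance and de novo methylation, 1 had a higher and 2 had a lower level in the Tom+ fraction of each tumor, with a median log2 difference of -0.094. Hells, a chromatin remodeler needed for DNA methylation, was at 254 (Tom-) and 264 (Tom+) TPM for tumor #1, against 204 (Tom-) and 76.8 (Tom+) TPM for tumor #2 (estimate -0.67, SE 0.42, adjusted p = 0.936 from limma). Of 8 genes grouped with the readers of methylated DNA, 1 was higher and 3 were lower in both tumors (median -0.053). Mbd3, a subunit of the NuRD complex for which binding to methylated DNA is not claimed here, had the largest difference (-0.17, SE 0.15). Of 10 tested genes of demethylation, 2 were higher and 1 was lower in both (median -0.00033). Gadd45a was at 7.16 (Tom-) and 10.9 (Tom+) TPM for tumor #1, against 5.94 (Tom-) and 1.13 (Tom+) TPM for tumor #2.

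For the other 9 subunits of Polycomb repressive complex 2, the median log2 difference was -0.032, where 2 members had a higher and 1 a lower Tom+ level in each tumor. Jarid2, an accessory subunit that helps the complex to bind chromatin, was at 31.2 TPM in Tom- cells of tumor #1 and between 13.8 and 16.1 TPM in the other libraries (estimate -0.50, SE 0.38). Among 21 subunits of Polycomb repressive complex 1, 6 were higher and 4 were lower in both tumors, and the median was 0.039. Scmh1 had the largest difference in this list, with 10.3 (Tom-) and 6.99 (Tom+) TPM for tumor #1, and 10.3 (Tom-) and 2.61 (Tom+) TPM for tumor #2 (estimate -1.07, SE 0.37, adjusted p = 0.936 from limma). Of 12 genes with activities opposed to Polycomb, 6 were higher and 4 lower in both (median 0.15), beside 21.6% and 29.5% of all genes. Bap1, which removes ubiquitin from histone H2A, had an estimate of -0.32 (SE 0.19). In the S-phase and proliferation list of 15 genes, 3 were higher and 6 were lower in both tumors, the median was -0.045, and Cdt1 had the largest difference (-0.33, SE 0.19).

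In 5 of the 10 genes, both differences between the tumors were larger, as deposited, than those between the fractions of either tumor. These were Tet2, Dnmt1, Uhrf1, Tet3 and Dnmt3b. The share of all genes for which this holds is not given here, so nothing is read from the count. The comparison of the tumors has 1 mouse on each side. Its values are therefore given with no test, once for Tom- and once for Tom+ cells. A difference of at least 2-fold in log2(TPM + 1) in both fractions was counted. As deposited, the median of all genes was 0.23 higher in tumor #2 than in tumor #1 in Tom- cells and 0.19 higher in Tom+ cells, and it was -0.093 and -0.11 after trimmed-mean scaling, so a difference between the tumors is also given relative to the median of all genes.

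Tet2 was the 1 gene of the 10 with a level at least 2-fold higher in tumor #2 in both fractions, beside 11.8% of all genes. Its TPM was 6.52-fold higher in Tom- cells and 4.14-fold higher in Tom+ cells, and its log2 difference was 2.37 and 1.86, or 2.14 and 1.67 relative to the median. This difference stayed between 1.54 and 2.67 under every scaling and pseudocount tried. Tet1, Tet3 and Ezh1 were higher in tumor #2 in both fractions as well, 4 of 10 in all beside 49.6% of all genes. The log2 difference was 0.32 and 1.30 for Tet1 in Tom- and Tom+ cells, 0.67 and 0.49 for Tet3, and 0.84 and 0.32 for Ezh1. Relative to the median of all genes it was 0.092 and 1.12 for Tet1, 0.44 and 0.31 for Tet3, and 0.61 and 0.13 for Ezh1. With quantile normalization the sign turned for Tet1 in Tom- cells (-0.25) and for Ezh1 in Tom+ cells (-0.058), and the differences of Tet3 were 0.20 and 0.085. With trimmed-mean scaling those of Tet3 were 0.38 and 0.24.

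At least 2-fold lower in tumor #2 in both fractions were 0 of the 10 genes, beside 3.1% of all genes. Lower in both at any size were Dnmt1, Uhrf1, Dnmt3b and Ezh2, 4 of 10 beside 27.5% of all genes. Dnmt1 was nearest to the 2-fold limit, with log2 differences of -0.93 in Tom- cells and -0.89 in Tom+ cells, or -1.16 and -1.07 relative to the median of all genes. It passed the limit with trimmed-mean scaling (-1.29 and -1.20) and after quantile normalization (-1.12 and -1.04). The 3.1% of all genes holds for the values as deposited, and no share is given for these scalings. For Uhrf1 the differences were -0.63 and -0.67, for Dnmt3b -0.33 and -0.55, and for Ezh2 -0.27 and -0.19. Relative to the median they were -0.86 and -0.86 for Uhrf1, -0.56 and -0.73 for Dnmt3b, and -0.50 and -0.38 for Ezh2. The sign of the differences of these 4 genes was kept under each scaling tried. Suz12 was nearly level between the tumors (0.16 and -0.096), with the positive value at -0.20 after trimmed-mean scaling, and Dnmt3a went in opposite directions (-0.64 in Tom- cells and 0.50 in Tom+ cells).

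**Figure D3:**
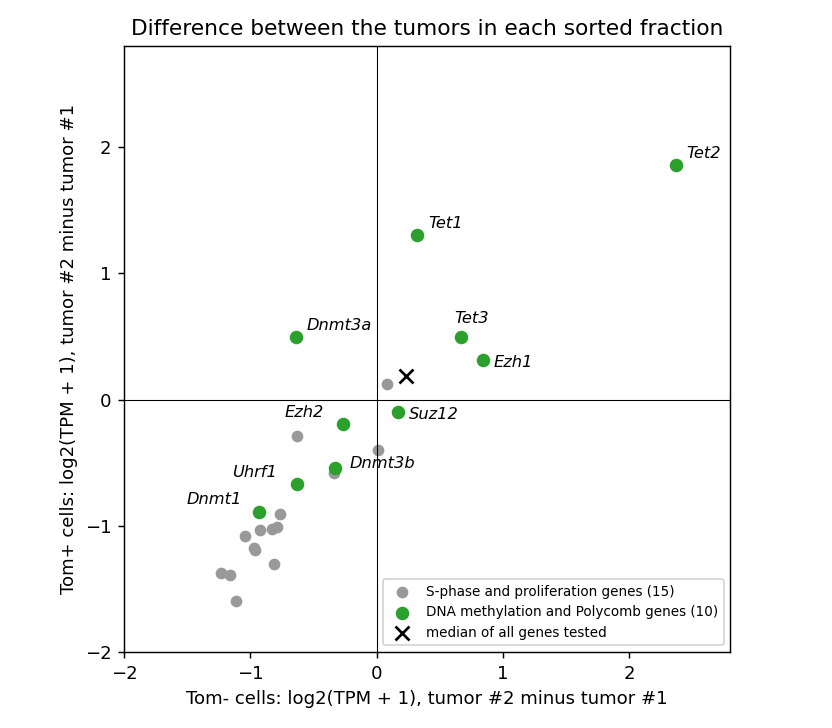
Difference between tumor #2 and tumor #1 in log2(TPM + 1), for Tom- cells (horizontal axis) and Tom+ cells (vertical axis); green points are the 10 genes, grey points are 15 S-phase and proliferation genes, and the cross is the median of all genes tested. Dnmt1 lies near many of the grey points and Tet2 lies at the far upper right (2.37 and 1.86).

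Of the 15 S-phase and proliferation genes, which encode replication factors and enzymes of nucleotide synthesis among others, 13 were lower in tumor #2 in both fractions, beside 27.5% of all genes, and 4 were at least 2-fold lower, beside 3.1%. Their median log2 difference was -0.83 in Tom- cells and -1.03 in Tom+ cells, or -1.05 and -1.22 relative to the median of all genes. Ccne1 was instead higher in tumor #2 in both fractions (log2 differences of 0.078 and 0.12). Mki67 was nearly level in Tom- cells (0.0077) and lower in Tom+ cells (-0.40). Mcm5, a subunit of the replicative helicase, was at 125 (Tom-) and 141 (Tom+) TPM for tumor #1, against 57.4 (Tom-) and 45.8 (Tom+) TPM for tumor #2. Pcna, the sliding clamp to which DNMT1 binds at the replication fork, was at 404 (Tom-) and 450 (Tom+) TPM for tumor #1, against 231 (Tom-) and 184 (Tom+) TPM for tumor #2. Relative to the summed TPM of the 15 genes, Dnmt1 stayed between 3.47% and 4.51% in the 4 libraries and Uhrf1 between 6.52% and 8.53%. Ezh2 was at 10.7% (Tom-) and 8.93% (Tom+) of that sum for tumor #1, against 15.2% (Tom-) and 15.5% (Tom+) for tumor #2. Whether the share of cycling cells differed between the tumors was not measured, and its part in the values of Dnmt1, Uhrf1 and Ezh2 was not tested.

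Of the other 9 subunits of Polycomb repressive complex 2, 5 were higher and 3 lower in tumor #2 in both fractions, beside 49.6% and 27.5% of all genes. Eed, the histone-binding core subunit beside Suz12, had the largest difference. It was at 118 (Tom-) and 157 (Tom+) TPM for tumor #1, against 250 (Tom-) and 246 (Tom+) TPM for tumor #2. Rbbp4 (log2 differences of -0.35 and -0.58) and Rbbp7 (-0.58 and -0.51) were among the 3 that were lower. The ratio of Suz12 to Eed therefore went from 0.793 and 0.524 in tumor #1 to 0.421 and 0.313 in tumor #2. In the list opposed to Polycomb, 8 of 12 genes were higher in tumor #2 in both fractions, beside 49.6% of all genes, and 1 was lower, beside 27.5%. The median log2 difference was 0.64 in Tom- cells and 0.65 in Tom+ cells, or 0.41 and 0.47 relative to the median of all genes. Setd2, a histone methyltransferase of transcribed genes, had differences of 1.35 and 1.38. Of 10 tested genes of demethylation, 2 were higher and 3 lower in tumor #2 in both fractions, beside 49.6% and 27.5% of all genes. Idh2, a mitochondrial enzyme that makes the α-ketoglutarate that TET enzymes consume, was at 64.6 (Tom-) and 59.7 (Tom+) TPM for tumor #1, against 7.74 (Tom-) and 11.0 (Tom+) TPM for tumor #2. Ogt, in the same list, went the other way. It was at 29.3 (Tom-) and 38.1 (Tom+) TPM for tumor #1, against 110 (Tom-) and 124 (Tom+) TPM for tumor #2. Of the 8 genes grouped with the readers, 6 were higher and 2 lower in tumor #2 in both fractions, with the largest difference for Zbtb4 (1.40 and 1.09). Of the 21 subunits of Polycomb repressive complex 1, 7 were higher and 6 lower, with the largest difference for Cbx7 (0.99 and 1.27). Both sets of counts stand beside the same 49.6% and 27.5% of all genes. Levels of Zbtb4 were low, at 0.216 (Tom-) and 0.249 (Tom+) TPM for tumor #1, against 2.21 (Tom-) and 1.66 (Tom+) TPM for tumor #2.

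The balance of methyltransferases to TET enzymes also differed between the mice. The summed TPM of Dnmt1, Dnmt3a and Dnmt3b was 117 (Tom-) and 87.9 (Tom+) for tumor #1, against 65.2 (Tom-) and 65.7 (Tom+) for tumor #2. The summed TPM of Tet1, Tet2 and Tet3 was 7.22 and 8.52 in tumor #1 and 26.9 and 28.6 in tumor #2. The ratio of the sums was 16.2 (Tom-) and 10.3 (Tom+) for tumor #1, against 2.42 (Tom-) and 2.30 (Tom+) for tumor #2. Such a ratio within a library does not depend on a single scaling factor per library, but quantile normalization can change it. It was computed from the deposited TPM alone, in which the values of the tumors did not overlap. Tet2 made up 41.9% and 60.1% of the Tet sum in tumor #1 and 73.4% and 74.0% in tumor #2, and Dnmt1 made up between 51.0% and 71.5% of the Dnmt sum.

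**Figure D4:**
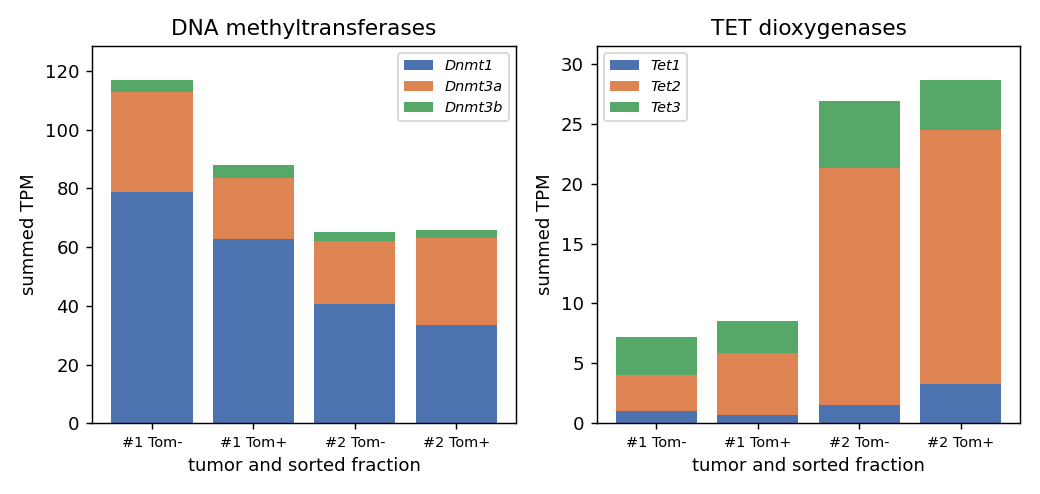
Summed TPM of the 3 DNA methyltransferase genes (left) and the 3 TET genes (right) in each library, stacked by gene; the vertical axes start at 0 and differ in scale. The Dnmt sum is highest in Tom- cells of tumor #1 (117 TPM), and the Tet sum is 7.22 to 8.52 TPM in tumor #1 and 26.9 to 28.6 TPM in tumor #2, where most of it is Tet2.

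Promoters from RefSeq on GRCm38.p6, from 250 bases before to 50 bases after an annotated start, were available for all 10 genes (15 promoters). They were searched on both strands for TTTGGCGC and TTTCGCGC, forms of the site of E2F factors, which drive S-phase genes, and for the E-box CACGTG, to which MYC binds. The motifs were chosen with these sequences in view, so nothing is read from their share among the 10 genes. The E2F letters were found in 3 of the 15 promoters, 1 each of Ezh2, Dnmt1 and Uhrf1, and the E-box in 1, of Dnmt3a. Of all 32851 promoters, 0.813% held the E2F letters and 7.15% the E-box. The windows of 30 bases around each match are shown for their position near the start, 5′ to 3′ on the strand of the gene, with the match in capitals; the second of Dnmt1 is on the opposite strand.

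Ezh2, chr6:47595009-47595038, minus strand, match from base 4 after the start: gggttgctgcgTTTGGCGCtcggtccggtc
Dnmt1, chr9:20952574-20952603, minus strand, match from base 34 after the start: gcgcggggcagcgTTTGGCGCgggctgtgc
Dnmt1, chr9:20952824-20952853, minus strand, match from base 219 before the start: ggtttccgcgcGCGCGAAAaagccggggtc
Uhrf1, chr17:56304117-56304146, plus strand, match from base 185 before the start: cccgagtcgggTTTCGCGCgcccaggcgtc
Dnmt3a, chr12:3891652-3891681, plus strand, match from base 80 before the start: tccagtggggccCACGTGacctggagttct

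The capitals mark letters and not measured binding, and no match in a window says nothing of the factor. CpG dinucleotides, the substrate of the DNA methyltransferases themselves, numbered 57 in the Tet2 promoter, more than in 99.8% of all promoters, 41 in that of Suz12 and 31 in that of Ezh2. Over all promoters the median was 7. Dnmt1 held 2, 12 and 33 CpG in its 3 annotated promoters, Dnmt3a held 18, 46 and 47 in its 3, Tet1 held 17, and methylation was not measured in these cells.

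Reads of a gene can be divided between near-identical copies by the authors' quantification. A search of the GENCODE M21 transcripts for copies with at least 90% identity over at least 250 bases found 2. The processed pseudogene Gm5648 matched Uhrf1 with 98.3% identity over 1590 bases and was listed at no more than 0.0694 TPM in any library. Dnmt3c matched Dnmt3b with 93.3% identity over 1655 bases and was listed at 0 in all libraries. Genes on the opposite strand share exon sequence with Dnmt3a, Tet2, Ezh2 and Suz12. These partners are absent from the deposited values and so could not be analysed. Without a stated strand of the libraries, their reads cannot be told apart from those of the 4 genes.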

How the data were processed

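RNA of sorted B220+ IgM+ Tom+ and Tom- splenocytes of 2 λ-MYC Tom+/ki mice was sequenced as single reads. Per the labels and the study's methods, reads were called with CASAVA 1.8, trimmed with Cutadapt and quantified by Salmon 1.9 against transcripts of GRCm38. The authors deposited TPM per gene. How transcripts were summed to genes is not given in the sources used here, and TPM keeps no read numbers, so depth is unknown and no counting interval is given.

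Values were analyzed as log2(TPM + 1) for genes with at least 1 TPM in at least 2 libraries, a scale that understates differences of low genes. Tom+ and Tom- cells were compared with limma 3.58.1 (R 4.3.3) over all 11339 genes, with Tom status and tumor as terms, a trend of the variance on mean level (degrees of freedom 2.21 from the prior, 1 residual), two-sided, with p-values adjusted by Benjamini-Hochberg. The tumor is a block because its libraries come from the same mouse. The authors' paired edgeR test needs counts and was not run. The method was tested on simulated data. The genes, lists and tests were chosen with earlier results of these data known. Named list genes were those with an unadjusted p-value below 0.05, or else the largest difference, plus the largest difference between tumors. The E2F and E-box motifs were chosen with results and promoter sequences in view. Copies were searched with blastn 2.17.0, and Python 3.11.15, pandas 2.3.3 and matplotlib 3.10.9 made tables and plots. Annotation from GENCODE M21 held 34582 of the 34866 identifiers. The annotation release of the authors' quantification may differ. Alternatives are given in the closing section. The allele that drives Cre and some marker genes are not reported here.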

Additional observations from a re-analysis of the deposited data

Results flagged for a closer look

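Dnmt3a was singled out because its Tom+ and Tom- cells differed in opposite directions in the tumors, by at least 1.2-fold in each on the log2(TPM + 1) scale. The difference was -0.70 in tumor #1 and 0.44 in tumor #2. With 1 pair per tumor the difference between these values was not tested. Tet1, Ezh1 and Dnmt3b also had opposite signs, but at least 1 of their values was smaller than this limit on that scale. For Tet1, at a level near the pseudocount of 1, this rests on the scale: its TPM differed by -30.4% in tumor #1 and by 110% in tumor #2.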

How the results depend on the processing

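Without the replicate block, the number of genes that differed between the fractions at an unadjusted p-value below 0.05 moved from 530 to 140, and the block changed no call of the 10 genes. It was 362 with a mean TPM of at least 5. Under all 10 alternatives that gave a test, 0 genes passed an adjusted p-value of 0.05, and 0 of the 10 genes had an unadjusted p-value below 0.05. The smallest adjusted p-value of any of the 10 was 0.913. Of 97 values of the 10 genes under these alternatives, 1 turned in sign, that of Dnmt3b with a pseudocount of 0.1 (-0.00049). The number lower in both tumors was 5, or 4 with a mean TPM of at least 5, which leaves out Dnmt3b, Tet1 and Tet3. In tumor #1 alone 7 of the 10 were lower, beside 50.4% of all genes, and in tumor #2 alone 7, beside 56.6%. Between the tumors, the number at least 2-fold lower in tumor #2 moved from 0 to 1 (Dnmt1) after either trimmed-mean scaling or quantile normalization. The share of all genes at this limit under these scalings is not given here, so nothing is read from this count. Of 120 values, 3 turned in sign, namely Tet1 in Tom- cells (-0.25) and Ezh1 in Tom+ cells (-0.058) with quantile normalization, and Suz12 in Tom- cells (-0.20) with trimmed-mean scaling. A further 32 moved, with no change of sign, by more than the SD between a gene's values in the fractions, among them Ezh2 in Tom- cells from -0.27 to -0.63 with trimmed-mean scaling and Dnmt3b in Tom- cells from -0.33 to -0.78 with quantile normalization. The unknown read depth limits Tet1, Dnmt3b and Tet3 the most, whose levels were lowest.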

Other observations

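The genes nearest in pattern over the 4 libraries were listed for the gene with the widest range and for the highest one, by Euclidean distance of centered log2(TPM + 1) among 10059 other protein-coding genes. Nearest to Tet2 were Trim12a (distance 0.11), Kantr (0.13) and Myof (0.13). Trim12a was at 7.40 (Tom-) and 12.1 (Tom+) TPM for tumor #1, against 46.7 (Tom-) and 46.5 (Tom+) TPM for tumor #2. Nearest to Ezh2 were Tnpo3 (0.029), Fam172a (0.031) and Atp5mpl (0.037), and Tnpo3, a nuclear import receptor, was at 76.3 (Tom-) and 67.8 (Tom+) TPM for tumor #1, against 64.5 (Tom-) and 58.2 (Tom+) TPM for tumor #2. With 4 libraries from 2 mice, many genes share such a pattern, and nothing follows from it on shared control.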
